A study of Mus musculus with 12 samples.

Results

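The genes of antigen presentation followed here, through the hippocampus of 12 mice, were *B2m*, *H2-K1*, *H2-D1*, *H2-T23* and *Tap1* of the MHC class I pathway and *Cd74*, *H2-Aa*, *H2-Ab1* and *H2-Eb1* of the class II pathway. These 9 genes were chosen by symbol and matched through their Entrez IDs, and all are among the 27179 gene IDs of the raw count table. At 3 months of age, 6 heterozygous *Nell-1+/6R* mice were compared with 6 WT mice from the same litters, and each genotype had 3 mice of each sex. A chemical mutagen gave the 6R mutation, which takes away the function of *Nell1* on 1 of its copies. The strain of the mice and the alleles of their H2 complex, the mouse MHC, are not stated in the sources read here. Whole hippocampus was sequenced in bulk, so fewer cells of a type and less RNA per cell cannot be told apart. Each mouse had 10834905 to 16016317 counted reads. *Nell1*, in CPM (the usual measure of a gene's share of all counts of the mouse), fell from 36.5 ± 4.55 to 19.1 ± 1.77 (mean ± SD over 6 mice), without overlap between the genotypes. All 8 markers of hippocampal principal neurons were detected, and their summed level was 2565 to 3396 CPM.

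MHC class I molecules show peptides from inside the cell to CD8 T cells. Each is made of a heavy chain, here *H2-K1*, *H2-D1* or the non-classical *H2-T23*, and the shared light chain encoded by *B2m*, and *Tap1* is a subunit of the transporter that carries the peptides into the endoplasmic reticulum. MHC class II molecules show peptides taken up from outside to CD4 T cells. *H2-Aa* and *H2-Ab1* encode the chains of the I-A molecule, *H2-Eb1* the beta chain of the I-E molecule, and *Cd74* the invariant chain that escorts both. Class II genes are made by professional antigen-presenting cells, which in the brain sit mostly in the meninges, the perivascular spaces and the choroid plexus, while class I genes are found in many cells, neurons and microglia among them, and rise with interferon.

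Of the 9 genes, 7 lie in the H2 complex on chromosome 17 (GRCm38, the build also called mm10). From the centromere they are *H2-K1* (chr17:33996012-34000619), *Tap1* (chr17:34187556-34197225), *H2-Ab1* (chr17:34263227-34269418), *H2-Aa* (chr17:34282744-34287823), *H2-Eb1* (chr17:34305867-34316674), *H2-D1* (chr17:35263094-35267497) and *H2-T23* (chr17:36029977-36032701). *B2m* lies on chromosome 2 (chr2:122147687-122153082) and *Cd74* outside both. All 9 are annotated as protein-coding. Class I heavy chains are alike in sequence, which bears on how reads are shared out between them. Of the stretches of 50 bases in the GENCODE M21 transcripts of *H2-K1*, 9.63% also occur in transcripts of other genes, and the share is 12.8% for *H2-D1* and 13.6% for *H2-T23*. It is 0.442% for *Tap1*, 0.488% for *H2-Aa*, and 0 for *B2m*, *Cd74*, *H2-Ab1* and *H2-Eb1*. *Tap1* and *Psmb9* lie on opposite strands with 212 bases of exon in common, and the strand setting of the counting is not stated there, so reads of that stretch cannot be told apart.

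Stretches of promoters are shown because the levels of several of these genes were correlated over the mice. All come from RefSeq (GRCm38.p6), read 5′ to 3′ on the gene's strand, and capitals mark matches to short motifs that were chosen after the sequences had been read. *H2-K1* and *H2-D1* share a stretch of 30 bases that differs at 1 base. It holds a kappa B type motif, GGGATTCCC, and an interferon response type motif, GAANNGAAA, read in reverse. For *H2-K1* it is chr17:34000428-34000457 on the minus strand, before the start used here (34000347) and inside the span given above, which begins farther upstream. For *H2-D1* it is chr17:35262924-35262953 on the plus strand, before the RefSeq start (35263094) and inside an exon that GENCODE gives to a longer *H2-D1* model.
H2-K1: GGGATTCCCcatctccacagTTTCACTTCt
H2-D1: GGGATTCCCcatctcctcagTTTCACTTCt
Searched on both strands from 250 to 11 bases before the start, GGGATTCCC occurs in 0.28% of 32817 RefSeq promoters and GAANNGAAA in 6.06%. The window of *B2m* (chr2:122147437-122147676, plus strand) holds another form, GAAANNGAA, found in 6.81% of promoters.
B2m: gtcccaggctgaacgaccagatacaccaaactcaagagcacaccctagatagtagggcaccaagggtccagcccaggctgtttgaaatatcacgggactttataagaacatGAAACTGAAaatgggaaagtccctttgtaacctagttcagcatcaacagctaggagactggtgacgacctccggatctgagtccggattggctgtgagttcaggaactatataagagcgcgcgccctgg
Of the class II genes, windows were read for *H2-Aa* and *H2-Eb1*. Both carry an X box core, GCAACT (8.65% of promoters), followed by a Y box, CTGATTGG (3.7%), the order in which these boxes are known from class II genes. The motifs are not particular to class II, since *Tap1* holds both, in the reverse order with the Y box reversed, and *H2-D1* and *H2-T23* hold a reversed Y box. In *H2-Aa* (chr17:34287834-34288073, minus strand) these begin 81 and 51 bases before the start, and in *H2-Eb1* (chr17:34305617-34305856, plus strand) 91 and 62 bases before it.
H2-Aa: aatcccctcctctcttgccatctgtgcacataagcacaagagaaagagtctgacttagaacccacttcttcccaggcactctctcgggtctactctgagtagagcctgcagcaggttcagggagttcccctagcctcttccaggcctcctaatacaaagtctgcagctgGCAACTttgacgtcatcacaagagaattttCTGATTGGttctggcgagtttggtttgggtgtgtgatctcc
H2-Eb1: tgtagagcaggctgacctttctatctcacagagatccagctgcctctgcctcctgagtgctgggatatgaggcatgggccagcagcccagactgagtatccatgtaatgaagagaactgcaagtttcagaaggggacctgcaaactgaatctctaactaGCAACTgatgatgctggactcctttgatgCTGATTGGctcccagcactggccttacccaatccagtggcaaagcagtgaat
A match is a run of letters and was not tested as a binding site.

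Per length of transcript, the class I light chain stood far above the rest. *B2m* was at 71.4 ± 10.4 CPM per kilobase of exon (mean ± SD, n = 12), and it was above *H2-K1*, at 5.67 ± 1.75, in all 12 mice. *Cd74* followed at 3.05 ± 2.26 and *H2-D1* at 2.48 ± 1.43. These neighbours were not ordered, since *Cd74* was the higher in only 7 of 12 mice. *H2-T23* was at 1.22 ± 0.227 and *Tap1* at 1.00 ± 0.196, and the order held in all 12 mice. The class II chains came last on this scale, *H2-Eb1* at 0.698 ± 0.524, *H2-Ab1* at 0.345 ± 0.239 and *H2-Aa* at 0.324 ± 0.235, and *H2-Ab1* was above *H2-Aa* in 7 of 12 mice. The class II chains rest on few reads, 198 counts over the 12 mice for *H2-Aa*, 141 for *H2-Ab1* and 220 for *H2-Eb1*, against 9761 for *B2m*.

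The genes also differed in how much they varied between mice. The coefficient of variation over the 12 mice was 14.6% for *B2m*, where counting alone gives 3.51%. It was 57.5% for *H2-D1* against 10.7% from counting, and 74.2% for *Cd74* against 12.1%. For *H2-T23* it was 18.5% against 14.6%, the closest of the 9 to counting. *H2-Ab1*, the gene with the fewest counts, varied by 69.3% against 29.2%.

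**Figure D1:**
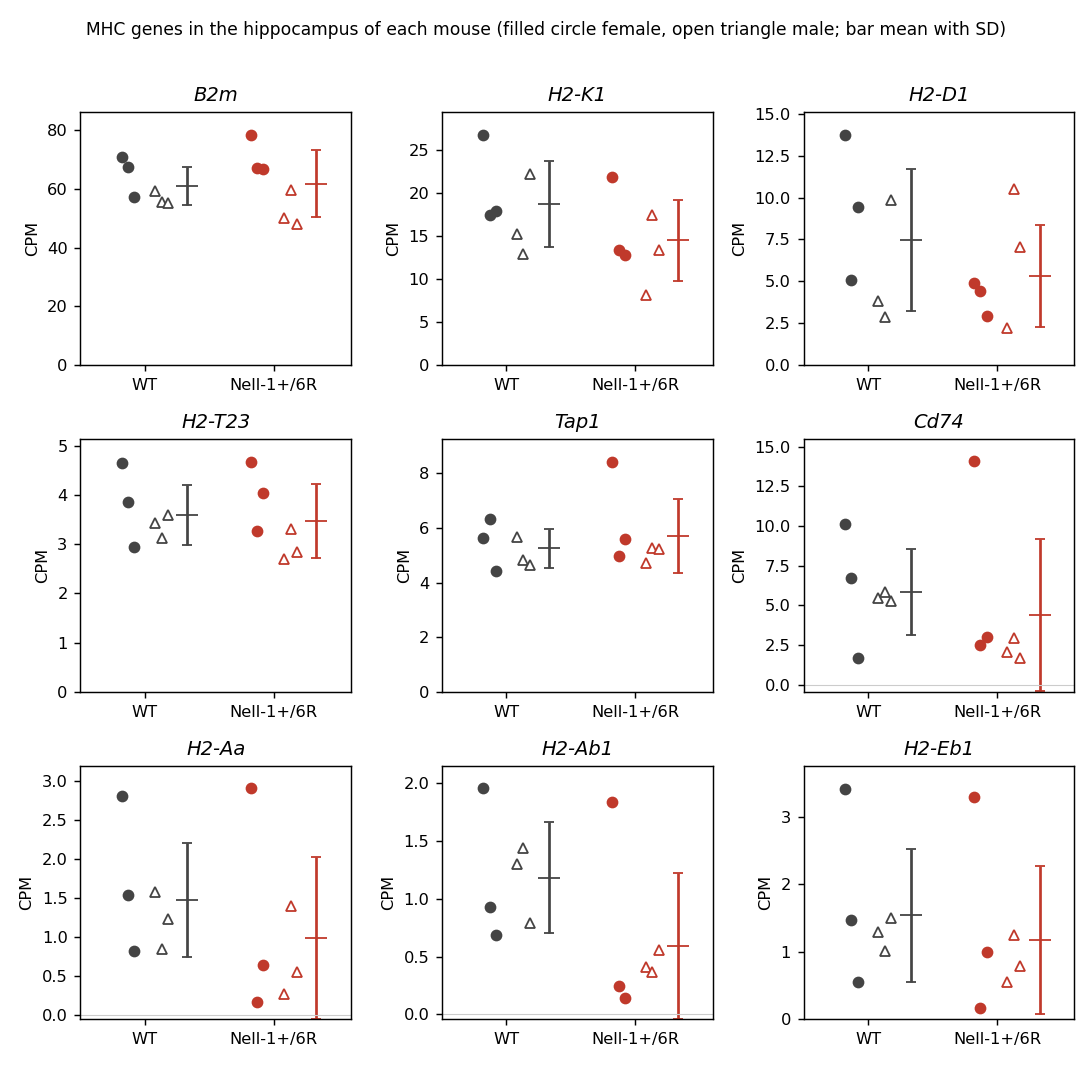
Level of the 9 genes in each mouse, in CPM on linear axes, for WT (grey) and *Nell-1+/6R* (red) mice, with females as filled circles, males as open triangles and the mean with its SD (n = 6) beside them. The genotypes overlap in every panel, *H2-Ab1* is low in 5 of the 6 *Nell-1+/6R* mice (0.142 to 0.554 CPM), and the sixth lies at 1.84 CPM.

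The first comparison asked whether losing 1 copy of *Nell1* changed these genes. None of the 9 passed the thresholds of the study, an unadjusted p under 0.05 with a fold change above 1.5, and 1.46% of the 17937 genes tested did. None had an unadjusted p under 0.05 by edgeR's quasi-likelihood test, against 3.26% of all genes, and none an adjusted p under 0.05, against 0.039%. By DESeq2 0 of the 9 passed the thresholds, and by limma-voom 1 did, *H2-Ab1*. The fitted log2 fold change was below 0 for 3 of the 5 class I genes, with a median of -0.06, and for 4 of the 4 class II genes, with a median of -0.57. Over all genes tested 50.3% were below 0 and the median was -0.00076. No gene of the 9 had genotypes that did not overlap, which 0.151% of all genes had.

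*B2m* gave the tightest result. Its level was 55.3, 58.3 and 71.0 CPM (lowest, median and highest) in WT and 48.2, 63.3 and 78.5 CPM in *Nell-1+/6R* mice. Its fitted log2 fold change was 0.01 (standard error 0.0785, unadjusted p = 0.921, adjusted p = 1.00, edgeR). The highest and the lowest mouse were both *Nell-1+/6R*.

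The heavy chain *H2-K1* was at 12.9, 17.7 and 26.8 CPM in WT and at 8.18, 13.4 and 21.9 CPM in *Nell-1+/6R* mice. Its log2 fold change was -0.37 (standard error 0.202, unadjusted p = 0.0862, adjusted p = 1.00, edgeR). The lowest mouse was a *Nell-1+/6R* male and the highest a WT female, and the groups overlapped over most of their range.

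*H2-T23* and *Tap1* had small fitted changes. *H2-T23*, a ligand of inhibitory and activating receptors of natural killer cells, was at 3.60 ± 0.609 and 3.47 ± 0.750 CPM (WT, then *Nell-1+/6R*), a log2 fold change of -0.06 (standard error 0.147). *Tap1* was at 5.25 ± 0.732 and 5.71 ± 1.37 CPM (log2 fold change 0.12, standard error 0.146). Its highest value, 8.43 CPM, came from female *Nell-1+/6R* replicate 1, and without that mouse the change was -0.01.

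The largest fitted change was that of *H2-Ab1*. The WT mice had 32, 12 and 10 counts in females and 14, 17 and 9 in males, or 0.682, 1.11 and 1.96 CPM (lowest, median and highest). The *Nell-1+/6R* mice had 24, 3 and 2 counts in females and 6, 5 and 7 in males, or 0.142, 0.387 and 1.84 CPM. Thus 5 of the 6 *Nell-1+/6R* mice lay below every WT mouse, and the remaining one, female replicate 1, lay above 5 of the 6 WT mice. The fitted change was -1.01 on the log2 scale (standard error 0.491, unadjusted p = 0.0583, adjusted p = 1.00, edgeR; 0.402 to 1.00 over the alternatives). The exact permutation test on its log2 CPM gave p = 0.0411 (two-sided, 924 splits, smallest possible 0.00216). It is not adjusted, and 1 of the 9 genes had such a p under 0.05 by genotype. The share of all genes with such a p was not counted for this test.

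The other class II genes had the same high mouse. *Cd74* was at 10.1, 6.72 and 1.71 CPM in WT females, at 5.47, 5.84 and 5.27 CPM in WT males, at 14.1, 2.53 and 2.97 CPM in *Nell-1+/6R* females and at 2.03, 2.94 and 1.66 CPM in *Nell-1+/6R* males (replicates 1 to 3). The WT males lay above the *Nell-1+/6R* males without overlap, as they did for *H2-Ab1*, and the females overlapped for both. With 3 mice against 3, 10.4% of all genes did not overlap in males. Over all mice the fitted value was -0.56 on the log2 scale (standard error 0.479, adjusted p = 1.00, edgeR). *H2-Aa* had a fitted value of -0.59 (standard error 0.524), with means of 1.47 ± 0.733 CPM (WT) and 0.989 ± 1.04 CPM (*Nell-1+/6R*). *H2-Eb1* had one of -0.41 (standard error 0.517), at 1.54 ± 0.987 and 1.17 ± 1.11 CPM. These fits rest on single mice in both directions. Without female WT replicate 1 the value of *H2-Eb1* was -0.030, and with single mice left out the values ran from -1.02 to -0.030 for *H2-Eb1*, from -1.27 to -0.33 for *H2-Aa*, from -1.25 to -0.41 for *Cd74* and from -1.83 to -0.78 for *H2-Ab1*. The highest *Nell-1+/6R* value of all 4 class II genes was that of female replicate 1. Without this mouse *H2-Ab1*, *Cd74* and *H2-Aa* passed the thresholds of the study, with log2 fold changes of -1.83, -1.25 and -1.27, and the smallest adjusted p of the 3 was 0.515 (edgeR, *H2-Ab1*). Calls rose over all genes as well, from 1.46% to 2.24%. Without it and the highest WT mouse together, an alternative added after the data had been seen, the number was also 3, against 1.88% of all genes.

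**Figure D2:**
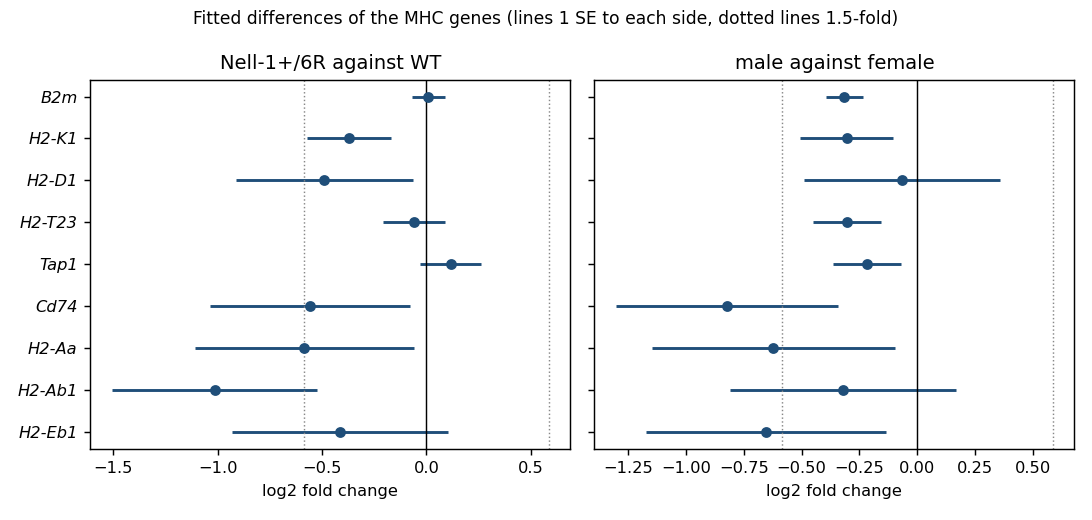
Fitted log2 fold changes of the 9 genes, *Nell-1+/6R* against WT on the left and male against female on the right, with lines of 1 standard error to each side (edgeR, 12 mice) and dotted lines at a 1.5-fold change. Class II genes have the longest lines, the genotype change of *H2-Ab1* (-1.01) lies farthest from 0 on the left, and all 9 values on the right are below 0.

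The summed level of the 4 class II genes was set beside the marker lists of cells that could carry them. It was 18.3, 10.7 and 3.75 CPM in WT females, 22.2, 3.10 and 4.74 CPM in *Nell-1+/6R* females, 9.65, 9.13 and 8.79 CPM in WT males and 3.25, 5.95 and 3.56 CPM in *Nell-1+/6R* males. The 2 highest mice, female WT replicate 1 and female *Nell-1+/6R* replicate 1, also had high sums of the 7 choroid plexus epithelium markers, 2045 and 5061 CPM, and the highest sums of the 10 leptomeningeal fibroblast markers, 408 and 371 CPM. Male WT replicate 3 had 4558 CPM and 364 CPM of these lists, and its class II sum was 8.79 CPM. Between the genotypes, 7 of the 10 leptomeningeal markers and 5 of the 10 markers of border-associated macrophages passed the thresholds of the study, all lower in *Nell-1+/6R* mice, where 1.07% of all genes passed and were lower. With single mice left out, counts added after the data had been seen, the numbers were 3 to 8 and 3 to 6, and without female WT replicate 1 both were 3. The number was 0 of the 7 choroid plexus markers over all mice. In males 6 of the 7 passed, all lower, against 1.6% of all genes, and the WT males other than replicate 3 had sums of 123 and 122 CPM. In females none passed, and all 7 had a fitted change above 0 (median 0.82). In males 5 of the leptomeningeal and 3 of the macrophage markers passed, all lower, with list medians of -1.40 and -1.01. In females 2 of each passed, all lower, with medians of -0.92 and -0.46, where 1.56% of all genes passed in either direction. The adjusted p of every one of these markers was above 0.05 (edgeR). The macrophage markers *Mrc1* and *Cd163*, both scavenger receptors, changed by -0.93 and -0.82 on the log2 scale. The macrophage sum was 28.7 to 42.4 CPM in WT and 21.4 to 34.9 CPM in *Nell-1+/6R* mice. Female *Nell-1+/6R* replicate 1 was at 29.7 CPM, within the range of its group. The microglia sum was 464 to 500 CPM in WT and 444 to 503 CPM in *Nell-1+/6R* mice. Of the dendritic cell list 2 of the 7 genes tested passed, *Batf3* and *Cd209a*, with changes of -0.90 and -0.76 (0 to 3 with single mice left out), and the sum was 17.4 to 21.6 and 14.3 to 22.2 CPM. Of the B cell list 1 of the 4 genes tested passed, *Ighm*, the heavy chain of IgM, with 3526 counts over the 12 mice and a change of -0.79 (unadjusted p = 0.0436, adjusted p = 1.00, edgeR). The number was 0 to 2 with single mice left out, and without female WT replicate 2 it was 0, with *Ighm* at -0.33. The sum of this list was 74.6 CPM in that mouse, 10.5 to 29.4 CPM in the other WT mice and 9.90 to 26.9 CPM in *Nell-1+/6R* mice, and the B cell marker *Ms4a1* had 0 counts in all mice. Only 2 of the 4 tested B cell genes had a fitted change below 0, and *Cd79a* and *Cd22* were at 0.62 and 0.25. None of the 4 genes tested of the T cell list passed. Its sum was 1.49 to 3.43 and 1.42 to 2.68 CPM, mostly from the kinase gene *Lck* (301 counts), and *Cd3d*, *Cd3e* and *Cd3g* of the T cell receptor complex had 5, 19 and 8 counts. Of the monocyte and neutrophil list 1 of the 5 genes tested passed, the chemokine receptor gene *Ccr2*, with 25 counts and a change of -1.58 (unadjusted p = 0.0354, adjusted p = 1.00, edgeR; 0 to 1 genes passed with single mice left out), and the sum was 0.507 to 1.62 and 0.475 to 1.06 CPM. None of the 3 red blood cell genes tested passed, and 2 of them, *Hba-a2* and *Alas2*, had an unadjusted p under 0.05 with changes of -0.40 and -0.45. The remaining tested gene of the list went the other way, at 0.30. That list had a median sum of 18.2 CPM (WT) against 13.8 CPM (*Nell-1+/6R*). None of the 8 principal neuron, 8 endothelial and 6 astrocyte markers passed the thresholds. An unadjusted p under 0.05 (edgeR) was reached by 3 neuron markers, all higher in *Nell-1+/6R* mice, and by 1 endothelial marker, which was lower. Over all genes 3.26% had such a p. The part of any of these cells in the class II values was not tested.

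**Figure D3:**
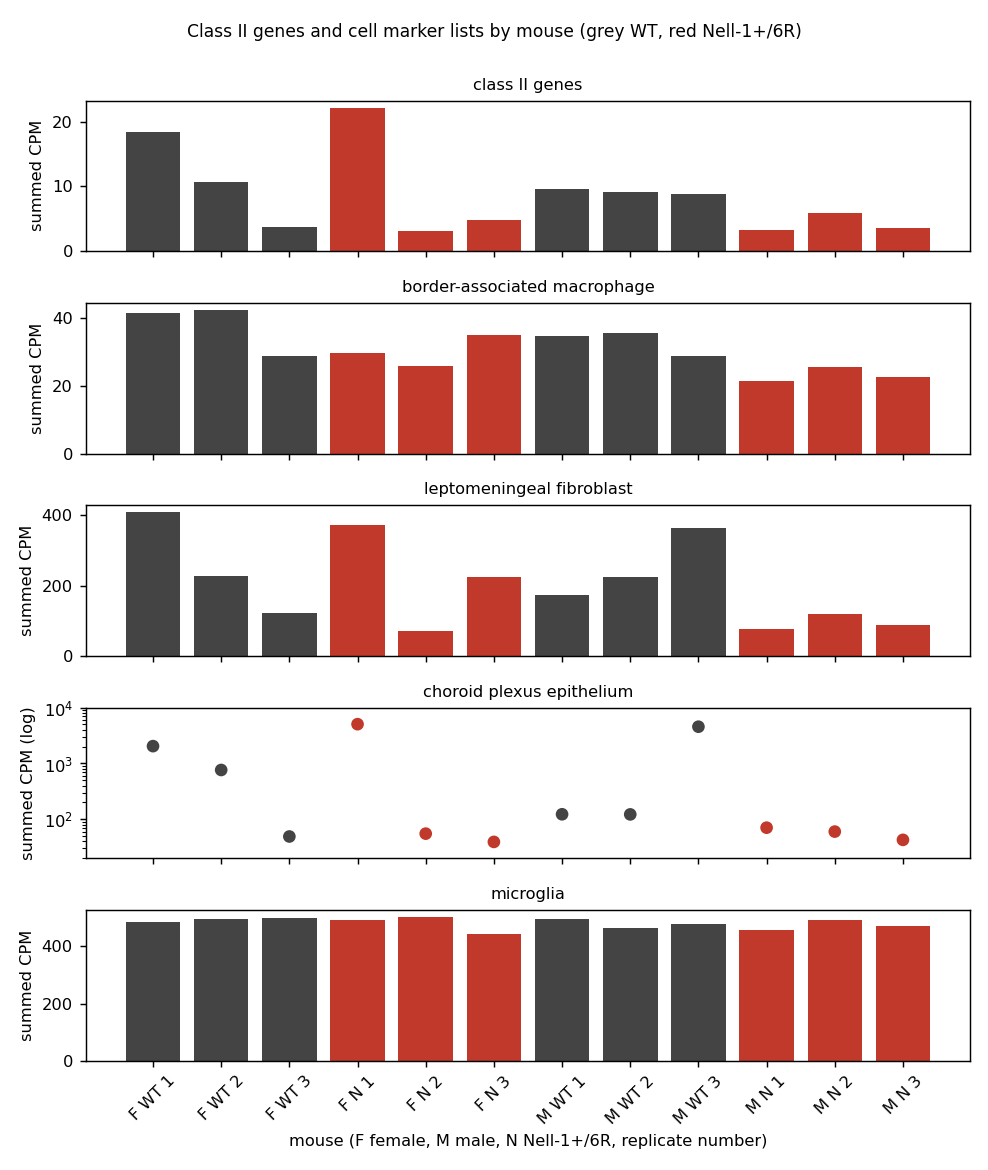
Summed CPM of the 4 class II genes and of 4 marker lists in each mouse, with WT in grey and *Nell-1+/6R* in red and a log axis for the choroid plexus list only. The class II sum is highest in female *Nell-1+/6R* replicate 1 (22.2 CPM) and female WT replicate 1 (18.3 CPM), and the microglia sum stays between 444 and 503 CPM.

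The second comparison asked whether the genotype effect was the same in both sexes. In females 1 of the 9 genes passed the thresholds, *H2-D1*, against 1.56% of all genes, and in males 0 of the 9 did, against 2.03%. Both numbers depend on the fit. By limma-voom with 4 groups *H2-D1* did not pass in females, and with the males fitted alone *Cd74* and *H2-Ab1* passed (adjusted p = 0.314 and 0.844, edgeR), against 2.36% of all genes. *H2-D1* had 225, 66 and 138 counts in WT females and 64, 54 and 41 in *Nell-1+/6R* females, or 13.8, 5.10 and 9.42 CPM and 4.91, 4.40 and 2.90 CPM. The female groups did not overlap, which 6.0% of all genes did not, although the lowest WT female was close to the highest *Nell-1+/6R* female. The log2 fold change in females was -1.22 (standard error 0.542, unadjusted p = 0.0424, adjusted p = 0.998, edgeR; 0.998 to 0.999 over the alternatives). In males it was 0.25 (standard error 0.543), with 3.80, 2.88 and 9.84 CPM in WT and 2.23, 10.5 and 7.05 CPM in *Nell-1+/6R* mice, which overlapped fully. The difference between the sexes was 1.47 (standard error 0.766, unadjusted p = 0.0768, adjusted p = 0.987, edgeR). For none of the 9 genes did the difference between the sexes have an unadjusted p under 0.05, against 3.09% of all genes. In males the 4 class II genes had a median change of -1.02, with *H2-Ab1* at -1.40 (standard error 0.746) and *Cd74* at -1.32 (standard error 0.676), and in females a median of -0.39. By limma-voom with 4 groups the female values of *H2-Aa*, *H2-Ab1* and *H2-Eb1* were -1.08, -1.34 and -0.70, and that of *Cd74* was -0.061. The difference between the sexes then turned direction for *H2-Aa*, *H2-Ab1* and *H2-Eb1*.

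*H2-D1*, a classical class I heavy chain, overlapped between the genotypes and between the sexes. The WT mean was 7.46 ± 4.22 CPM against 5.33 ± 3.04 CPM for *Nell-1+/6R* (SD, 6 mice per genotype). The log2 fold change over both sexes was -0.49 (standard error 0.424, unadjusted p = 0.269, adjusted p = 1.00, edgeR), and it ran from -0.80 (without male *Nell-1+/6R* replicate 2) to -0.24 (without female WT replicate 1) with single mice left out. The level was between 7.05 and 13.8 CPM in 5 mice, female WT replicates 1 and 3, male WT replicate 3 and male *Nell-1+/6R* replicates 2 and 3, and between 2.23 and 5.10 CPM in the other 7. The genes most like *H2-D1* over the mice were looked for by position, a search added after these values had been seen. Among 14136 other genes with a mean of at least 1 CPM, the 20 with the strongest correlation to *H2-D1* in either direction (absolute Pearson's r of at least 0.832 over 12 mice, genotype means removed) included 9 within 20 Mb of it on chromosome 17. Of all genes compared, 447, or 3.16%, lie there. For each of the other 8 genes the number was 0 or 1 of 20.

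The nearest of the 9 genes were *C4a*, *Tubb5*, *H2-T22* and AA388235, at 0.454, 0.571, 0.774 and 1.28 Mb. AA388235 (chr17:33981492-33985358), next to *H2-K1*, was close to on or off. It had 39, 0 and 35 counts in WT females, 0, 0 and 1 in *Nell-1+/6R* females, 0, 0 and 37 in WT males and 0, 43 and 33 in *Nell-1+/6R* males. The 5 mice with 33 counts or more are the same 5 in which *H2-D1* was highest. *C4a*, a complement component of the class III region, went the other way (r = -0.86). It was at 4.71, 9.19 and 4.84 CPM in WT females, 6.98, 6.93 and 8.71 in *Nell-1+/6R* females, 8.90, 7.10 and 4.92 in WT males and 7.44, 4.33 and 4.91 in *Nell-1+/6R* males, and its 5 lowest mice are again the same. The tubulin gene *Tubb5* (r = 0.91) varied far less, from 59.9 to 80.0 CPM.

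Low-count genes of the H2 complex were read beside it, also after their values had been seen. *H2-K2*, a class I gene close to *H2-K1*, had 25, 11, 8 and 14 counts in female WT replicates 1 and 3, male WT replicate 3 and male *Nell-1+/6R* replicate 2, and 0 to 3 counts in the other 8 mice. *H2-Q6* and *H2-Q7* together had 22, 7, 4, 10 and 4 counts in the 5 mice high for *H2-D1* and 0 to 2 in the others. Reads of these genes can be confused with those of other heavy chains. *H2-Ea*, the alpha chain that pairs with *H2-Eb1*, is not transcribed in C57BL/6 mice, the strain of the reference genome, because its promoter is deleted there. It had 1 to 23 counts in each of the 12 mice here. In female *Nell-1+/6R* replicate 2 and male *Nell-1+/6R* replicates 2 and 3 it had only 1, too few to show transcription. Its share of the *H2-Ea* and *H2-Eb1* counts was 48.1% (95% exact binomial interval 28.7% to 68.1%) in male WT replicate 1 and 55.6% (35.3% to 74.5%) in male WT replicate 2, and 33.3% to 34.8% in 6 other mice. It was 13.8% (6.53% to 24.7%) in female WT replicate 1, 15.0% in male WT replicate 3, and 5.56% and 9.09% in male *Nell-1+/6R* replicates 2 and 3. The intervals hold counting error alone, for reads and not for molecules, and in 4 mice they rest on 3 to 12 counts. Whether the mice carry different H2 alleles was not tested, and a read from an allele unlike the reference can be lost in alignment.

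**Figure D4:**
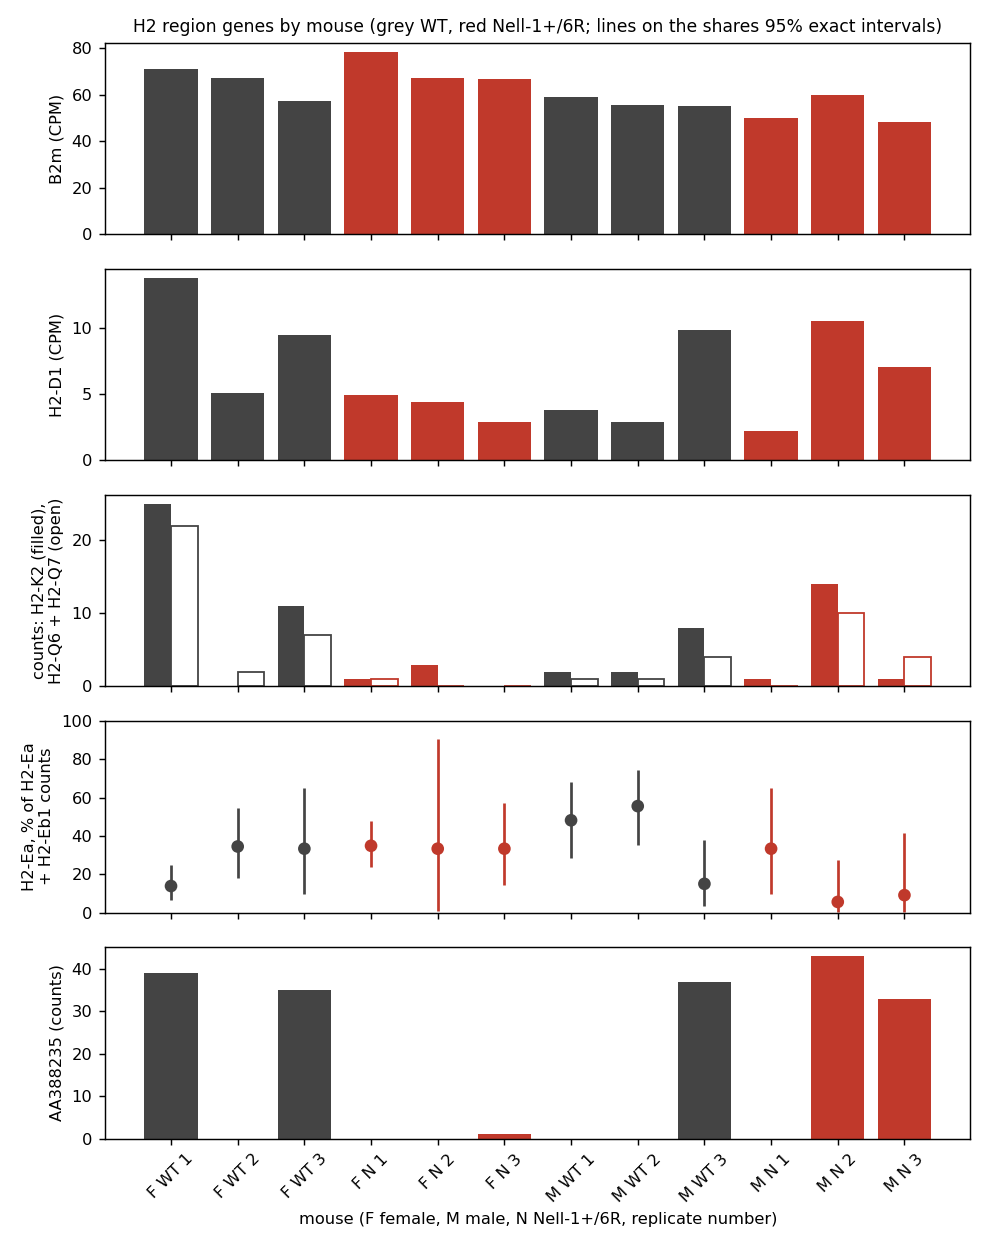
From the top, *B2m* and *H2-D1* in CPM, counts of *H2-K2* (filled) and *H2-Q6* plus *H2-Q7* (open), the share of *H2-Ea* with its 95% exact interval, and counts of AA388235 in each mouse, with WT in grey and *Nell-1+/6R* in red. AA388235 has 33 to 43 counts in the 5 mice where *H2-D1* is between 7.05 and 13.8 CPM and 0 or 1 in the others, and the *H2-Ea* share is lowest in 4 of these 5.

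The third comparison was of the sexes, and the sexes overlapped in each of the 9 genes (0.173% of all genes did not overlap). All 9 genes had a lower fitted level in males, against 51.0% of all genes tested, with a median log2 difference of -0.31 against -0.0035 over all genes. For the 4 class II genes and *H2-D1* this direction turned without 1 or 2 mice. None of the 9 passed the thresholds of the study (1.35% of all genes did) and 1, *B2m*, had an unadjusted p under 0.05 (4.72% of all genes). None had an adjusted p under 0.05 (0.0335%). *B2m* was at 71.0, 67.4 and 57.5 CPM in WT females and 78.5, 67.3 and 66.7 CPM in *Nell-1+/6R* females, and at 59.2, 55.7 and 55.3 CPM in WT males and 50.1, 59.8 and 48.2 CPM in *Nell-1+/6R* males. All females but WT replicate 3 lay above all males. The fitted male level was 1.24-fold lower (log2 difference -0.31, standard error 0.0786, unadjusted p = 0.00134, adjusted p = 0.868, edgeR; 0.239 to 1.00 over the alternatives), and the exact permutation test gave p = 0.00649 (two-sided). The difference stayed between -0.36 and -0.27 with single mice left out.

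*H2-T23* and *H2-K1* had fitted male minus female differences of -0.30 and -0.31 on the log2 scale (standard errors 0.147 and 0.202), at 3.17 ± 0.345 against 3.90 ± 0.710 CPM and 14.9 ± 4.73 against 18.4 ± 5.31 CPM (SD, n = 6 each). *Tap1* was at 5.06 ± 0.390 CPM in males and 5.90 ± 1.40 CPM in females (-0.22, standard error 0.146). Without female *Nell-1+/6R* replicate 1 the difference of *Tap1* was -0.089 and that of *H2-K1* -0.18. For *H2-K1* it was also -0.20 without either female WT replicate 1 or male *Nell-1+/6R* replicate 1. With both female mice numbered 1 left out the differences were -0.16 for *H2-T23*, -0.044 for *H2-K1* and -0.074 for *Tap1*. None of these 3 had an unadjusted p under 0.05.

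Genes of the pathways around the 9 were counted from lists. By genotype, none of the 13 genes of class I peptide loading and proteasome, of the 12 tested other class I chains, of the 13 tested class II pathway genes or of the 23 interferon response genes passed the thresholds. Their median changes were -0.05, -0.14, -0.04 and -0.08. Below an unadjusted p of 0.05 there was only *Fcgrt*, the neonatal Fc receptor, at 19.5 ± 3.03 CPM in WT and 16.6 ± 2.53 CPM in the others (log2 fold change -0.24, adjusted p = 1.00, edgeR). *Ciita*, the master regulator of class II transcription, was at 2.28 ± 0.260 and 2.03 ± 0.424 CPM (WT, then *Nell-1+/6R*), and *Nlrc5*, its class I counterpart, at 0.960 ± 0.359 and 0.912 ± 0.351 CPM. By sex, 1 of the 12 other class I chains passed the thresholds, *H2-Q4*, lower in males by 0.611 on the log2 scale (unadjusted p = 0.0332, adjusted p = 0.868, edgeR), where 1.35% of all genes passed. Of the 23 interferon response genes, 5 had an unadjusted p under 0.05 and all 5 had a lower fitted level in males, where 4.72% of all genes have such a p in either direction. These were *Irf7*, the transcription factor of the type I interferon response (-0.57), *Isg15*, a ubiquitin-like protein (-0.51), *Oasl2* (-0.53), *Ifitm3*, which restricts the entry of viruses (-0.53), and *Gbp3*, a GTPase induced by interferon (-0.33). Each had an adjusted p of 0.868 (edgeR), and they are named after their values were seen. Lower levels in males with an unadjusted p under 0.05 were found for 2.85% of all genes. They were also found for 2 of the 13 class I peptide loading and proteasome genes and 2 of the 12 other class I chains. For the 13 class II pathway genes the number was 0. Among marker lists, all 3 red blood cell genes tested had such a p, and the median sum of this list was 18.1 CPM in females and 13.1 CPM in males, with overlap. Of the leptomeningeal markers 8 of 10 and of the choroid plexus markers 7 of 7 had a fitted value below 0 (medians -0.53 and -1.20), none with such a p. In the marker lists 1 red blood cell gene (-2.19) and the B cell gene *Cd22* (-1.58) passed the thresholds and were lower in males. The dendritic cell gene *Clec9a* (1.16) and 1 T cell gene (2.88) passed and were higher in males. The microglia sum was 444 to 503 CPM in females and 458 to 497 CPM in males, and the part of any cell type in these differences was not tested.

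Finally, the 9 genes were compared with each other over the mice. Of the 36 pairs, 16 were correlated at an adjusted permutation p under 0.05 (log2 CPM, genotype means removed, 100000 permutations within genotype), all 16 positively. *H2-Aa* and *H2-Eb1* gave the strongest relation (Pearson's r = 0.95, adjusted permutation p = 0.00072, Spearman's rho = 0.93, adjusted p = 0.00684, n = 12 mice). Leaving out the 2 mice most distant from the median of *H2-Aa* gave r = 0.87. *H2-Aa* and *H2-Ab1*, which encode the chains of 1 molecule and are neighbours too, gave r = 0.69 (adjusted permutation p = 0.0714, rho = 0.48, adjusted p = 0.242), and r = 0.30 without 2 mice. *B2m* and *H2-T23* followed a similar course (r = 0.88, adjusted permutation p = 0.00816, rho = 0.79, adjusted p = 0.0229), with r at 0.82 without 2 mice. Across the classes, *Tap1* and *Cd74* gave r = 0.86 (adjusted permutation p = 0.0182, rho = 0.78, adjusted p = 0.0115) and r = 0.71 without 2 mice. The heavy chains *H2-K1* and *H2-D1* gave r = 0.78 (adjusted permutation p = 0.0196, rho = 0.87, adjusted p = 0.00958) and r = 0.89 without 2 mice, the only 1 of the 8 pairs of *H2-D1* that passed. Over all 36 pairs r ranged from -0.0037 to 0.95. The share of pairs of other genes that pass in this way was not counted. The number of correlated pairs rests on few mice. It dropped from 16 to 3 without female *Nell-1+/6R* replicate 1 and to 8 without either female WT replicate 1 or male *Nell-1+/6R* replicate 1, and it was 6 with the means of sex and genotype removed.

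**Figure D5:**
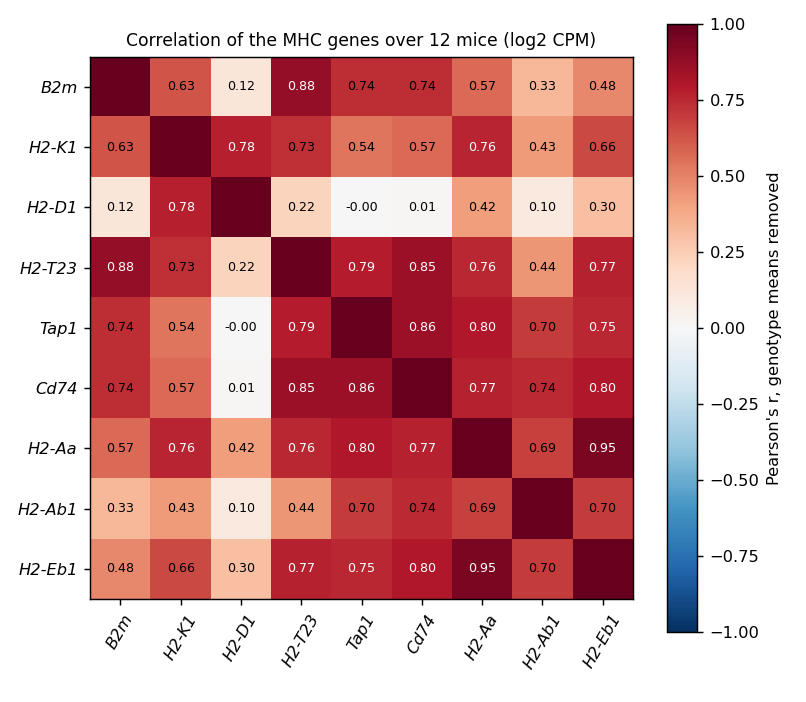
Pearson's r between each pair of the 9 genes over 12 mice, on log2 CPM with the genotype means removed, from blue (-1) to red (1). The 6 class II pairs range from 0.69 to 0.95, and *H2-D1* is at 0.78 with *H2-K1* and near 0 with *Tap1* (-0.0037), *Cd74* (0.0096), *H2-Ab1* (0.10) and *B2m* (0.12).

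The genes most like each class mean were then named from 14136 genes. Closest to the mean of the 5 class I genes was *H2-T22* (r = 0.95), a class I gene of the same complex, followed by 2010320M18Rik, *Tpp1*, *Shisa5*, *Cdca7l*, *Gzmm*, 4933434E20Rik, *Zmynd10*, *Mansc4* and *Sox13* (r from 0.86 to 0.93). Closest to the mean of the 4 class II genes were *Mxra8*, *Serpinh1*, *Elk3*, *Cxcl12*, *Piezo1*, *Srp68*, *Sema3f*, *Klhdc8b*, *Chia1* and *Pcolce2* (r from 0.90 to 0.93). *Serpinh1* encodes a chaperone of collagen, *Pcolce2* an enhancer of procollagen processing and *Cxcl12* a chemokine. These values describe 12 mice, each 1 library, and carry no test.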

How the data were processed

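Hippocampal RNA of 12 mice was sequenced in bulk. The authors aligned the reads to mm10 with HISAT2 and counted them per Entrez gene with featureCounts (versions 2.1.0 and 2.0.1 in the submitters' processing notes), and the deposited values are raw counts without normalization. How reads that match several places were treated is not stated there. Columns were matched to mice by the short names in the labels, and 0 stayed unmatched. Titles of WT mice hold the letters "Het", and the genotype field, which says WT, was followed.

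Genes reaching 0.2 CPM in 2 or more mice (17937) were tested with edgeR 4.0.16 in R 4.3.3, using TMM scaling and terms for sex and genotype, or 4 groups for effects within a sex. The standard error is the fold change divided by the root of its F statistic, and p was adjusted by Benjamini-Hochberg over all genes tested. The 9 genes and the pathway and marker lists were chosen with earlier results of these data known. Pathway genes are named where they pass the thresholds (at most 5 per direction and list), with others named after their values were seen. Exon lengths are from GENCODE M21. The fit was tested on simulated data. Nothing says that mice were handled separately after dissection, so p-values measure the spread between these samples. Alternatives were limma-voom 3.58.1, DESeq2 1.42.0, other scalings and filters, a replicate block, single sexes, and each mouse left out. Tables and figures were made in Python 3.11.15.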

Additional observations from a re-analysis of the deposited data

Results flagged for a closer look

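In 5 of the 18 sets of 6 mice (9 genes in each genotype), 1 mouse stood apart from the rest by Dixon's test at the 95% level, and chance alone gives about 1 in 20. Female *Nell-1+/6R* replicate 1 was the highest of its genotype in 4 of them, with *Tap1* at 8.43 CPM (next 5.59), *Cd74* at 14.1 CPM (next 2.97), *H2-Ab1* at 1.84 CPM (next 0.554) and *H2-Eb1* at 3.30 CPM (next 1.25). Female WT replicate 1 was the highest WT mouse for *H2-Eb1*, at 3.42 CPM (next 1.49). These mice also had choroid plexus sums of 5061 and 2045 CPM. Male WT replicate 3 had 4558 CPM and was not flagged, and the part of that tissue in these values was not tested. The sets share mice and several of the genes were correlated, so the sets are not independent. The share of all genes flagged by this rule was not counted.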

How the results depend on the processing

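The number of the 9 genes past the thresholds by genotype, 0, became 1 with limma-voom (with sex or genotype alone), without a filter and with the replicate block, in each case *H2-Ab1*, at -1.34, -1.33, -1.01 and -1.16. It became 3 without female WT replicate 1 and female *Nell-1+/6R* replicate 1 together, a setting chosen after seeing the data. Leaving out single mice gave 0 to 3, namely 1 without female WT replicate 3 and 3 without female *Nell-1+/6R* replicate 1. An unadjusted p under 0.05, reached by 0 of the 9, was reached by 1 with limma-voom (both forms) and without a filter, by 2 with the replicate block, by 3 without both mice, and by 0 to 4 with single mice left out. Replicate numbers did not pair the mice: same-numbered mice correlated from -0.20 to 0.24, and 4 of 12 were closest to their own number. Over all genes the block gave 212 past the thresholds against 261. DESeq2 gave 170, filterByExpr 110, a minimum of 1 CPM in 6 mice 82 (where *H2-Ab1* was not tested), and single mice left out 202 to 400. By sex DESeq2 gave 151 against 242.

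Males fitted alone gave 2 of the 9 past the thresholds and at an unadjusted p under 0.05, in place of 0, and in females limma-voom with 4 groups gave 0 in place of 1. By sex, 1 gene passed the thresholds without both mice, *H2-Ab1*, which was then higher in males (0.745). The number was 0 to 1 with single mice left out. An unadjusted p under 0.05 was reached by 2 without both mice and by 1 to 3 with single mice left out. Shares over all genes are not given for these fits by sex. The correlated pairs were 6 with sex and genotype means removed and 3 to 19 with single mice left out. No gene of the 9 had an adjusted p under 0.05 in any of these fits.

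Some directions turned. By genotype *B2m* ranged from -0.0427 (without female WT replicate 3) to 0.0464 with single mice left out, and went to -0.00127 with limma-voom and genotype alone and -0.0209 without both mice. Over single mice left out *Tap1* ran from -0.0149 (without female *Nell-1+/6R* replicate 1) to 0.173 and *H2-T23* from -0.149 to 0.000529 (without female WT replicate 1), and *Tap1* went to -0.00288 without both. By sex *H2-D1* ran from -0.364 to 0.189 and was above 0 without female WT replicate 1, male WT replicates 1 or 2, or male *Nell-1+/6R* replicate 1, and was 0.184 without both. *H2-Ab1* ran from -0.502 to 0.267 (without female *Nell-1+/6R* replicate 1), with 0.0592 by limma-voom and 0.745 without both, where *Cd74*, *H2-Aa* and *H2-Eb1* went to 0.0755, 0.353 and 0.425. With limma-voom and 4 groups *Cd74* in females went to -0.0606, and the difference between the sexes to -0.00784 for *H2-K1*, 0.129 for *H2-Aa*, 0.00265 for *H2-Ab1* and 0.0825 for *H2-Eb1*. The causes were not tested. Counts of 2 to 56 per mouse limit the class II chains.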

Other observations

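Among genes for receptors that read MHC molecules, *Lag3*, which binds class II, stood highest, at 6.03 ± 2.18 and 6.45 ± 1.63 CPM (WT, then *Nell-1+/6R*, SD over 6 mice). Of the 9 listed, 7 were tested, and none passed the thresholds by genotype or sex. The T cell coreceptors *Cd4* and *Cd8a* had 65 and 20 counts over the 12 mice, and *Cd3e* of the T cell receptor complex had 19. *Pirb*, a receptor for class I molecules on myeloid cells and neurons, had 97 counts and was at 0.543 ± 0.359 and 0.648 ± 0.207 CPM.

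Of 19 tested genes listed for the class III region and its surroundings, none passed the thresholds by genotype or sex, with a median genotype change of 0.02. *Ring1*, a Polycomb protein encoded near *H2-K1*, had a fitted male minus female difference of -0.31 on the log2 scale (unadjusted p = 0.00787, adjusted p = 0.868, edgeR), a gene named after its value was seen.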
